A study of Oryza sativa with 12 samples.

Results

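Among 55986 annotated entries of the rice genome, 27 loci had almost no messenger RNA in leaves of watered plants and clear messenger RNA in leaves of droughted plants. They were chosen by level: at most 0.5 CPM (a locus's count per 1000000 counts of its library) in each of 6 control libraries and at least 3 CPM in each of 6 drought libraries. The rule was met by 30 loci, and 3 of them, assigned to the dehydrin and late embryogenesis abundant genes RAB21, RAB16B and LEA3-1, were left out. The step from control to drought is therefore what defined the 27 loci, and it is described below without a test.

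The libraries came from rice (Oryza sativa) of the cultivar IAPAR9, either wild type or carrying idr1-1 in the same background, at the five-leaf stage, 5 weeks old. Plants of both genotypes grew in concrete tanks, and stressed plants were taken once the soil held 10% moisture. Each of the 4 combinations, wild type control, idr1-1 control, wild type drought and idr1-1 drought, had 3 biological replicates. The tissue is labelled leaf, although the extraction is described for seedlings. How many plants went into a replicate is not stated, and idr1-1 is the only mutant line.

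A drying rice plant makes abscisic acid, the hormone that closes stomata. Bound to its receptors, it blocks a group of protein phosphatases and thereby frees protein kinases that activate transcription factors. These switch on genes for protective proteins, among them dehydrins and other late embryogenesis abundant proteins, many of which are otherwise made in drying seeds and are close to silent in a watered leaf. The study is known to map idr1-1 to RGA1, which encodes the G protein alpha subunit, a switch at the plasma membrane that relays hormone and stress signals.

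Depth was similar in all libraries, from 19100444 to 25109848 counts. LOC_Os05g26890, assigned to RGA1, stood at 10.9 to 12.7 CPM in the 6 idr1-1 libraries and at 24.1 to 34.0 CPM in the 6 wild type libraries, without overlap. CAB1R, a light-harvesting gene of leaf mesophyll, had group means of 12600 to 15870 CPM, while of the root silicon transporter genes LSI2 was at 0 in all libraries and LSI1 had group means of 8.80 to 19.4 CPM. The 3 shoot apex genes of a list of other tissues' markers had group means of at most 0.066 CPM. One library stood apart: idr1-1 drought replicate 3 differed from replicates 1 and 2 of its group by a chi-square per gene of 85.6 and 89.0, against 8.20 to 21.4 for every other pair of replicates. The genotype comparison of the 27 loci within drought is given with and without it.

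In control leaves the 27 loci were close to the limit of counting. Summed over all of them, a control library held 1.54 to 2.96 CPM, and 9 to 16 of the 27 loci had no count in it. The highest value of any of them in any control library was 0.427 CPM. In these 6 libraries 3 counts amount to 0.130 to 0.157 CPM, so most control values were at or below it, and the depth does not separate a silent locus from one transcribed at a trace. LOC_Os05g05930, LOC_Os08g34390, LOC_Os11g26570, LOC_Os11g43790 and LOC_Os12g31860 had no count in any of the 6 control libraries.

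In drought leaves every one of the 27 loci lay between 3.10 and 188 CPM, as the rule requires at its lower end. Their summed level was 1392, 899 and 1171 CPM in wild type replicates 1 to 3, a mean of 1154 ± 247 (SD, n = 3). In idr1-1 it was 358, 532 and 946 CPM in replicates 1 to 3, a mean of 612 ± 302 (SD, n = 3), or of 445 CPM without replicate 3. The third idr1-1 library thus lay inside the wild type range and the other idr1-1 libraries below it. In bulk leaf RNA, fewer cells that express a locus and less RNA per cell cannot be told apart. Over both genotypes, 6 loci averaged 50 CPM or more in drought, 17 averaged 10 to 50 CPM and 4 averaged less than 10 CPM. CPM is not scaled to transcript length, so this spread does not rank the loci by number of transcripts.

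**Figure D1:**
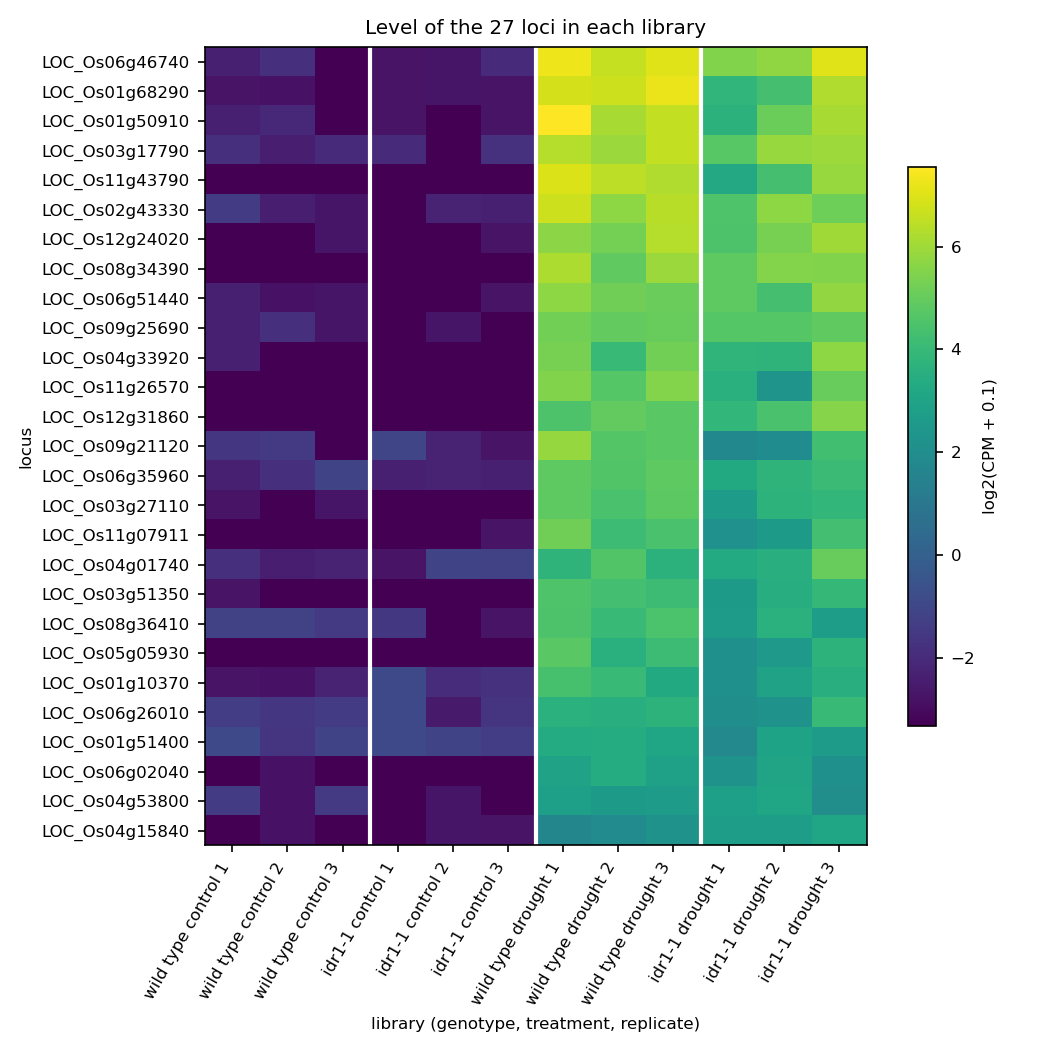
Level of each of the 27 loci (rows, ordered by mean drought level) in each of the 12 libraries (columns), coloured by log2(CPM + 0.1). The 6 control columns are dark throughout, the highest control value being 0.427 CPM, and the 3 wild type drought columns are brighter than idr1-1 drought columns 1 and 2 for most rows.

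The 3 loci left out took more of the counts, with drought means over both genotypes of 634 CPM for RAB21 (LOC_Os11g26790), 175 CPM for RAB16B (LOC_Os11g26780) and 133 CPM for LEA3-1 (LOC_Os05g46480). In all 3, every idr1-1 drought library lay below every wild type drought library, with ratios of the means, idr1-1 to wild type, of 0.429, 0.490 and 0.381. The highest mean among the 27 was 102 CPM, for LOC_Os06g46740.

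HOX24 (LOC_Os02g43330) was the only one of the 27 loci with a gene name that could be used. It encodes a transcription factor of the homeodomain-leucine zipper class, family I, a plant family that includes regulators of the response to water deficit and abscisic acid. Its level was 106, 52.6 and 84.1 CPM in wild type drought replicates 1 to 3 and 23.6, 51.8 and 35.5 CPM in idr1-1 drought replicates 1 to 3. The genotypes did not overlap, but the highest idr1-1 value and the lowest wild type value differed by less than 1 CPM. In control leaves its highest value was 0.281 CPM. Its drought level was 565 times its control level in wild type and 566 times in idr1-1, resting on 9 and 4 control counts over 3 libraries each. The rule used these levels, so the ratios only describe the step. The fitted log2 fold change of idr1-1 against wild type within drought was −1.05 ± 0.30 (SE), with an adjusted p of 0.169 by edgeR's quasi-likelihood test over all loci. Under the alternatives run, this adjusted p ranged from 0.0233 to 0.463.

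HOX22 and HOX6 belong to the same family and were transcribed in control leaves too. HOX22 (LOC_Os04g45810) averaged 15.7 CPM in wild type control and 189 ± 7.22 CPM (SD, n = 3) in wild type drought, against 11.6 and 97.3 ± 17.9 CPM in idr1-1. It was lower in idr1-1 drought by edgeR, with a log2 fold change of −0.90 and an adjusted p of 0.0388 (−0.91 and 0.0104 without idr1-1 drought replicate 3). HOX6 (LOC_Os09g35910) averaged 24.0 CPM in wild type drought and 22.7 CPM in idr1-1 drought.

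The other loci have no name or product here and are described by identifier. LOC_Os06g46740, with the highest mean CPM in drought, stood at 154, 95.7 and 129.9 CPM in wild type replicates 1 to 3 and at 44.8, 54.4 and 130.3 CPM in idr1-1 replicates 1 to 3. The first and second idr1-1 libraries lay below all wild type libraries, and the third lay close to the wild type middle value. LOC_Os01g68290 stood at 114, 105 and 151 CPM in wild type and at 14.2, 20.3 and 76.1 CPM in idr1-1, so all idr1-1 libraries lay below all wild type libraries. LOC_Os01g50910 had the largest coefficient of variation in wild type, 53.4%, at 188, 69.7 and 93.7 CPM, and stood at 12.5, 34.8 and 69.9 CPM in idr1-1. There the third idr1-1 library just exceeded the lowest wild type library.

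LOC_Os11g43790 had no control count at all. In drought it stood at 125, 89.9 and 75.9 CPM in wild type and at 9.41, 20.5 and 58.5 CPM in idr1-1, without overlap. Against a floor of 3 counts over the 3 control libraries of a genotype, drought was at least 2052-fold higher in wild type and at least 576-fold higher in idr1-1. LOC_Os08g34390, also without a control count, stood at 74.2, 29.6 and 59.8 CPM in wild type and at 29.2, 45.9 and 44.9 CPM in idr1-1. Here the genotypes overlapped, and drought was at least 1140-fold higher in wild type and at least 811-fold higher in idr1-1. For the other loci without a control count, these lower bounds in wild type were 825-fold for LOC_Os11g26570, 568-fold for LOC_Os12g31860 and 395-fold for LOC_Os05g05930.

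LOC_Os03g17790 stood at 82.3, 60.1 and 94.8 CPM in wild type drought and at 26.7, 58.4 and 61.7 CPM in idr1-1 drought. LOC_Os12g24020 stood at 51.2, 38.8 and 80.1 CPM in wild type and at 22.6, 39.5 and 64.1 CPM in idr1-1. In both, idr1-1 replicate 1 was the lowest of the 6 libraries and the genotypes overlapped. LOC_Os06g51440 stood at 51.6, 36.8 and 33.6 CPM in wild type and at 29.2, 20.3 and 55.0 CPM in idr1-1, where the third library was the highest of all 6. LOC_Os09g25690 had the smallest coefficient of variation among idr1-1 libraries, 7.96%, at 25.9, 26.1 and 29.7 CPM, just below its wild type values of 37.3, 31.0 and 32.9 CPM.

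LOC_Os04g15840, with the lowest mean CPM of the 27 in drought, was the one locus with every idr1-1 library above every wild type library. It stood at 6.55, 6.67 and 8.35 CPM in idr1-1 and at 3.10, 3.70 and 4.65 CPM in wild type. Its log2 fold change between genotypes was 0.96 ± 0.24 (SE), with an adjusted p of 0.129 by edgeR and a range of 0.0108 to 0.386 under the alternatives. LOC_Os04g53800 stood at 7.0, 5.97 and 6.23 CPM in wild type and at 6.95, 8.58 and 4.08 CPM in idr1-1, with a 95% interval of −0.52 to 0.80 for its log2 fold change. LOC_Os12g31860 stood at 22.7, 30.3 and 26.9 CPM in wild type and at 14.5, 21.8 and 48.4 CPM in idr1-1, the third library again being the highest.

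The limits of the rule cut through a continuum. The members closest to the control limit were LOC_Os06g26010 at 0.427 CPM and LOC_Os01g51400 and LOC_Os01g10370, both at 0.425 CPM, in their highest control library. Just outside it were LOC_Os05g47730 and LOC_Os10g36180, both at 0.521 CPM, and LOC_Os09g34920 at 0.563 CPM. The members closest to the drought limit were LOC_Os04g15840 at 3.10 CPM, LOC_Os09g21120 at 3.25 CPM and LOC_Os01g51400 at 3.36 CPM in their lowest drought library. Just outside it were LOC_Os01g18170 at 2.88 CPM, LOC_Os04g31710 at 2.83 CPM and LOC_Os01g62600 at 2.79 CPM. LOC_Os06g26010 had values that were not whole in all 12 libraries, so its counts hold fractions of reads and its level is uncertain. Values that were not whole also occurred in 3 libraries for LOC_Os01g51400 and in 1 library each for LOC_Os09g25690 and LOC_Os11g26570.

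The genotype comparison within drought was not what the rule used, although a locus below 3 CPM in any idr1-1 or wild type drought library could not be a member. By CPM, 10 of the 27 loci (37.0%) had every idr1-1 library below every wild type library, against 9.32% of the 15383 other loci with at least 3 CPM in every drought library. The reverse held for LOC_Os04g15840 alone, against 3.72% of those other loci, and 16 loci overlapped. The ratio of mean levels, idr1-1 to wild type, had a median of 0.603 over the 27 loci and of 0.954 over the other loci. Those other loci were not chosen for a rise in drought, so this does not set the 27 apart from other drought-raised loci. It ran from 0.238 for LOC_Os09g21120 to 1.88 for LOC_Os04g15840, and 23 of the 27 were below 1, or 25 without idr1-1 drought replicate 3. Of the other loci, 64.8% were below 1, or 74.7% without that replicate.

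By edgeR's quasi-likelihood test, none of the 27 loci was called at an adjusted p under 0.05, against 0.184% of all 22833 loci tested, of which 0.14% were lower and 0.0438% higher in idr1-1. At an unadjusted p under 0.05, 17 of the 27 passed, 16 of them lower in idr1-1, whereas 13.6% of all loci tested passed and 6.6% passed as lower. The median fitted log2 fold change was −0.72 over the 27 loci and 0.01 over all loci tested. In lists described below, it was −0.99 for late embryogenesis abundant and dehydrin genes, the loci left out by name among them. It was −0.27 for abscisic acid genes, −0.22 for stress transcription factors with HOX24 among them, and 0.27 for solute and water-stress genes. The 27 were not compared with a set of loci raised in drought to a like degree. DESeq2 called 5 of the 27, with LOC_Os06g35960, LOC_Os03g27110, LOC_Os01g68290 and LOC_Os08g36410 lower and LOC_Os04g15840 higher, against 1.18% of all loci called lower and 1.21% called higher by DESeq2. The smallest adjusted p in edgeR was 0.0529, for LOC_Os06g35960, at 28.6, 24.0 and 28.7 CPM in wild type and 9.63, 13.5 and 17.0 CPM in idr1-1. Its log2 fold change was −0.97 ± 0.17 (SE), with a 95% interval of −1.31 to −0.64, and its adjusted p ranged from 0.000375 to 0.283 under the alternatives.

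Without idr1-1 drought replicate 3, edgeR called 13 of the 27 loci lower in idr1-1 and none higher, against 2.44% of all loci called lower in that fit. At an unadjusted p under 0.05, 21 of the 27 then passed, 20 of them lower, against 11.6% of all loci passing as lower. DESeq2 without replicate 3 called 14 of the 27 lower and 1 higher, against 3.65% of all loci called lower. Without replicate 2 of the same group edgeR called 5 lower, against 0.467% of all loci, and without replicate 1 it called none. The median ratio of mean levels was 0.433 over the 27 loci without replicate 3, against 0.888 over the other loci. LOC_Os01g68290 had a log2 fold change of −1.79 with all libraries (adjusted p 0.109) and of −2.69 without replicate 3 (adjusted p 8.8e-05). LOC_Os09g21120, at 57.8, 25.3 and 26.9 CPM in wild type and 3.25, 3.79 and 19.1 CPM in idr1-1, had a log2 fold change of −2.10 with all libraries (adjusted p 0.134) and of −3.21 without replicate 3 (adjusted p 0.00361).

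**Figure D2:**
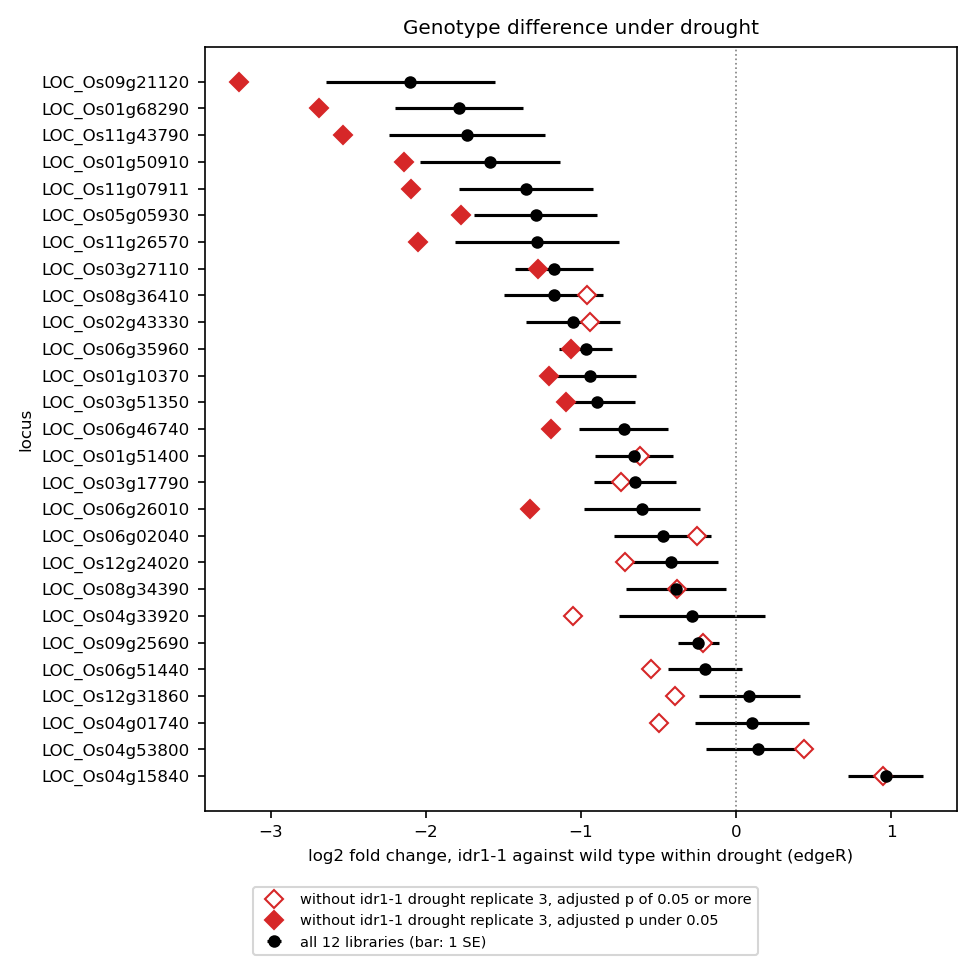
Fitted log2 fold change of idr1-1 against wild type within drought for each of the 27 loci, from edgeR with all 12 libraries (black points, bars of 1 SE) and without idr1-1 drought replicate 3 (diamonds, filled where the adjusted p was under 0.05). With all libraries 23 of the 27 points lie below 0, and the 13 filled diamonds are all below 0.

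The idr1-1 replicates differed widely at these loci, and at others that met the same rule. Replicate 3 was at least 2-fold above the mean of replicates 1 and 2 at 14 of the 27 loci (51.9%), against 4.93% of the other loci with at least 3 CPM in every drought library. Replicate 1 was the lowest of all 6 drought libraries at 21 of the 27 loci (77.8%), against 39.5% of the other loci, and both replicates 1 and 2 lay below every wild type library at 22 (81.5%), against 45.7%. Wild type replicate 1 was the highest of the 6 libraries at 13 loci (48.1%), against 15.3%. The coefficient of variation between replicates had a median of 49.6% in idr1-1 and 23.2% in wild type over the 27 loci, and of 16.1% and 8.24% over the other loci. Between idr1-1 replicates 1 and 2 alone it was 28.3% over the 27 loci and 6.58% over the other loci. For the 3 loci left out by name, the coefficient of variation in idr1-1 was 67.4% for RAB21, 31.0% for RAB16B and 40.7% for LEA3-1. The members share these libraries, so their common order across libraries is 1 observation per library and not 27.

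Composition differed among the same libraries. The 20 most abundant loci took 16.9% and 15.9% of the counts in idr1-1 drought replicates 1 and 2 and 12.3% in replicate 3, against 12.7% to 14.1% in wild type drought. The TMM scaling factors were 0.890, 0.897 and 1.11 in idr1-1 drought replicates 1 to 3, against 0.964 to 1.03 in wild type drought. The part of composition in the spread of the 27 loci was not tested.

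**Figure D3:**
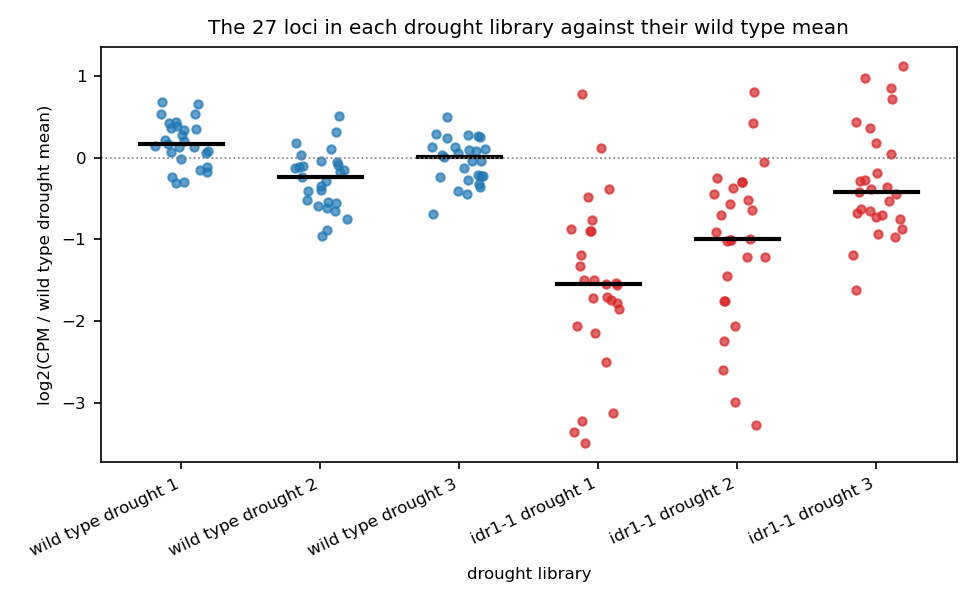
Level of each of the 27 loci (points) in each of the 6 drought libraries as log2 of its CPM over its wild type drought mean, with the median of the 27 as a bar. In idr1-1 drought replicates 1 and 2 most points lie below 0, while replicate 3 is spread on both sides of 0.

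The loci were scattered over the genome as far as locus numbers, which run along each chromosome, can show. They lay on 10 of the 12 chromosomes, with 5 on chromosome 6, 4 each on chromosomes 1 and 4, and none on chromosomes 7 and 10. No member was the next entry to another. The closest pair, LOC_Os01g50910 and LOC_Os01g51400, was 46 entries apart. LOC_Os11g26570 lay 21 entries from RAB16B on chromosome 11, where the dehydrin genes RAB16B and RAB21 are adjacent. Base positions are not used here, since the build of the files is not given in the sources used here.

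The nearest entry on each side gave 54 neighbours, and none of them met the rule. Of these, 25 (46.3%) stayed at or below 0.5 CPM in all 12 libraries, against 56.9% of all entries, and for 6 of the 27 loci this held on both sides. Each of the other loci had a neighbour above 0.5 CPM in at least 1 library. Of the 28 neighbours tested, edgeR called 9 higher and 5 lower in wild type drought than in wild type control, 32.1% and 17.9% of those tested, against 22.4% and 21.5% of all loci (43.9% in either direction). In idr1-1 it called 5 higher and 3 lower, 17.9% and 10.7%, against 18% and 17.6% of all loci (35.6% in either direction), and without idr1-1 drought replicate 3 it called 9 higher, against 18.4% of all loci in that fit. Their median log2 fold change was 0.30 in wild type and 0.26 in idr1-1, against 0.00 and 0.01 over all loci. A neighbour silent in control could pass edgeR's filter on low counts only through its drought libraries, so its call as higher was largely fixed.

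Of the 28 tested neighbours, 3 were higher in drought in both genotypes, against 13.3% of all loci. LOC_Os09g25700, next to LOC_Os09g25690, averaged 0.0503 CPM in wild type control and 2.55 ± 0.685 CPM (SD, n = 3) in wild type drought, and 0.0158 and 1.15 ± 0.299 CPM in idr1-1. Its log2 fold changes were 5.63 and 5.74, with adjusted p-values of 1.14e-05 and 6.86e-05 by edgeR, and only 1 of its 6 drought libraries reached 3 CPM. This locus passed edgeR's filter on low counts only through its drought libraries, so its calls as higher were largely fixed by the filter. LOC_Os06g46754, next to LOC_Os06g46740, rose from 5.57 to 9.70 CPM in wild type and from 4.42 to 7.03 CPM in idr1-1. LOC_Os03g17780, next to LOC_Os03g17790, rose from 5.46 to 7.50 CPM and from 4.39 to 6.16 CPM. The fitted changes of LOC_Os06g46754 and LOC_Os03g17780 were under 2-fold in both genotypes.

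Around several other loci with high CPM the neighbours were silent or not called. LOC_Os12g24020 stood between LOC_Os12g24010, at 0 in all libraries, and LOC_Os12g24030, which was at 0 in 3 groups and averaged 0.0175 CPM in idr1-1 control. The entry before HOX24, LOC_Os02g43320, was at 0 in all libraries, and the entry after it, LOC_Os02g43340, averaged 11 CPM in wild type control and 13.5 CPM in wild type drought, with an adjusted p of 0.294 by edgeR. LOC_Os11g43780 beside LOC_Os11g43790 and LOC_Os09g25660 beside LOC_Os09g25690 were also at 0 throughout. LOC_Os01g68290 lay between highly transcribed loci: LOC_Os01g68269 averaged 383 CPM in wild type control and 325 CPM in wild type drought, and LOC_Os01g68300 averaged 501 and 610 CPM. In idr1-1 LOC_Os01g68269 averaged 494 and 366 CPM and LOC_Os01g68300 880.3 and 508 CPM, with adjusted p-values of 0.335 and 0.0762 by edgeR, and neither was called in wild type. LOC_Os06g51430 and LOC_Os06g51450, on either side of LOC_Os06g51440, stayed at group means of 17.9 to 21.6 CPM and 10.8 to 14.8 CPM.

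Other neighbours were called in a single genotype or were lower in drought in both. LOC_Os11g07912, beside LOC_Os11g07911, was called higher in idr1-1 alone, from 0.795 to 2.67 CPM (adjusted p 0.00523 by edgeR, 0.0979 in wild type). So was LOC_Os04g15820, beside LOC_Os04g15840, from 5.41 to 6.64 CPM (adjusted p 0.043 by edgeR, 0.0686 in wild type). LOC_Os03g17800, the other neighbour of LOC_Os03g17790, rose from 12.9 to 24.4 CPM in wild type (adjusted p 0.000448 by edgeR), and averaged 12.6 and 16.4 CPM in idr1-1 (adjusted p 0.0516). For these neighbours the difference between the genotypes' responses was not tested. LOC_Os06g46730 rose in wild type from 0.556 to 1.21 CPM and averaged 0.525 and 0.803 CPM in idr1-1. LOC_Os01g50930, beside LOC_Os01g50910, rose in wild type from 79.9 to 103.6 CPM and averaged 89.6 and 100.9 CPM in idr1-1. LOC_Os08g34390 had a neighbour on one side that fell in wild type drought, LOC_Os08g34380, from 1.51 to 0.271 CPM, and one on the other side that rose, LOC_Os08g34400, from 0.570 to 1.28 CPM. In idr1-1 they averaged 0.546 and 0.416 CPM, and 0.634 and 0.850 CPM, without a call. The largest fitted rise and fall in wild type were at LOC_Os06g35970, beside LOC_Os06g35960, and LOC_Os03g27120, beside LOC_Os03g27110. LOC_Os06g35970 went from 0 to 0.816 ± 0.439 CPM and LOC_Os03g27120 from 50.3 ± 46.4 to 5.92 ± 1.22 CPM (SD, n = 3). Their adjusted p-values by edgeR were 0.00267 and 0.00175 in wild type, and 0.121 and 0.0509 in idr1-1. LOC_Os06g35970 passed the filter on low counts only through its drought libraries, so its call as higher was largely fixed by the filter. LOC_Os04g53810, LOC_Os06g02028 and LOC_Os12g31850, neighbours of LOC_Os04g53800, LOC_Os06g02040 and LOC_Os12g31860, were lower in drought in both genotypes, against 13.3% of all loci called so.

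Within 5 entries on either side there were 270 neighbouring loci, and none met the rule. For 242 of them (89.6%) the log2 ratio of mean drought to mean control level, with 0.1 CPM added to each, was within 1 of 0, against 91.6% of all entries. The ratio exceeded 3 at 4 of the 270, a larger share than the 0.614% of all entries. The added 0.1 CPM holds silent loci near 0: of the 135 that exceeded 0.5 CPM in any library, 110 (81.5%) were within 1 of 0, against 81.7% of all such entries. The 27 loci themselves lay between 4.14 and 9.31 on this scale. Beside LOC_Os09g25700, the 4 were LOC_Os11g43760, LOC_Os04g01710 and LOC_Os01g10320, each 3 entries before a member, and they were singled out after their values were seen. Next below 3 came LOC_Os09g25710, the entry after LOC_Os09g25700, at 2.92, with means of 0.405 CPM in control and 3.72 CPM in drought. After it came LOC_Os06g35970, next to LOC_Os06g35960, at 2.49. LOC_Os01g10320, near LOC_Os01g10370, was transcribed in control leaves, with means of 12.7 ± 2.80 CPM in wild type and 6.73 ± 0.682 CPM in idr1-1, and reached 162 ± 3.46 and 84.4 ± 13 CPM in drought (SD, n = 3). It was lower in idr1-1 than in wild type under drought by edgeR, with a log2 fold change of −0.87 ± 0.14 (SE) and an adjusted p of 0.0388 (−0.83 and 0.0141 without idr1-1 drought replicate 3). LOC_Os11g43760, near LOC_Os11g43790, stood at 2.58, 7.33 and 4.17 CPM in wild type drought and at 2.77, 1.83 and 0.895 CPM in idr1-1 drought, with control means of 0.106 and 0.0793 CPM. LOC_Os04g01710, near LOC_Os04g01740, had no control count and stood at 2.01, 1.87 and 1.49 CPM in wild type drought and at 0.352, 0.479 and 1.54 CPM in idr1-1 drought.

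**Figure D4:**
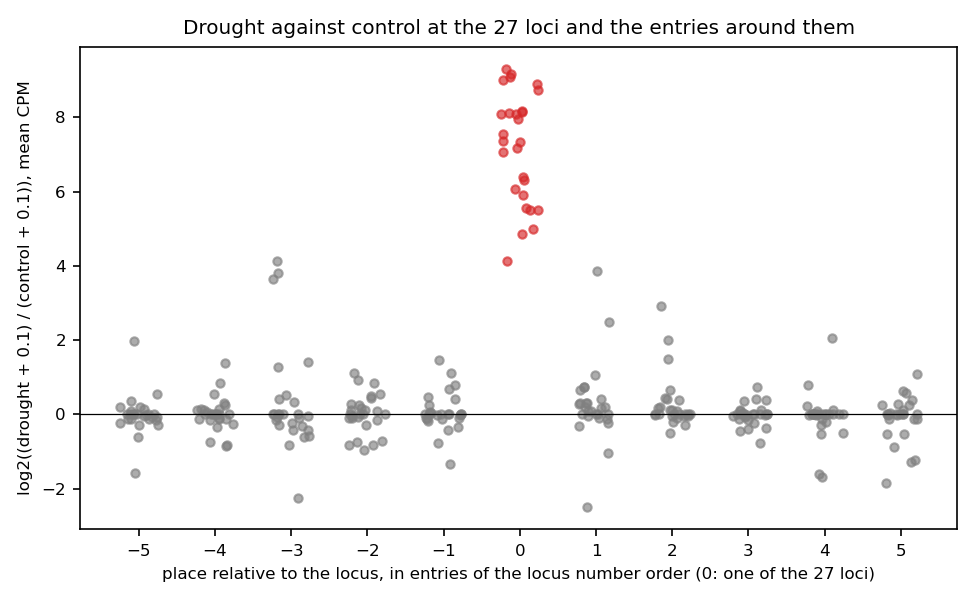
Drought against control at the 27 loci (place 0) and at the 5 entries on each side in the order of locus numbers, as log2 of mean drought over mean control CPM with 0.1 CPM added to each. The 27 loci lie between 4.14 and 9.31, and 242 of the 270 surrounding loci lie within 1 of 0.

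Other genes of the drought response, from lists chosen with earlier results of these data known, give the setting, counted over the loci whose name the reference table holds on the same chromosome. Of 9 late embryogenesis abundant and dehydrin genes, 8 were higher in drought in each genotype, against 22.4% and 18% of all loci, with median log2 fold changes of 4.13 in wild type and 5.77 in idr1-1. The 3 loci left out by name are among them. These met the rule, so their being higher in drought, and their part in the medians, was fixed by it. RAB16C (LOC_Os11g26760), a further dehydrin gene, lies close to RAB16B and RAB21 in locus number. It was transcribed in control leaves at 3.91 CPM in wild type and reached 43.2 CPM, so it missed the control limit. RAB16D (LOC_Os11g26750) averaged 3.55 CPM in wild type drought and 1.25 CPM in idr1-1 drought. RAB16D, RAB25 (LOC_Os01g50700) and LEA3-2 (LOC_Os03g20680) had control means of at most 0.302 CPM. They passed edgeR's filter on low counts only through drought libraries, so their being called higher was partly fixed by the filter. Of 12 genes for abscisic acid synthesis, breakdown and signalling, 9 were higher in wild type and 8 in idr1-1, and none was lower. LOC_Os12g42280, on that list as the synthesis gene NCED5 but with a name not held by the table, fell from 27.4 to 3.92 CPM in wild type and from 16.9 to 5.41 CPM in idr1-1. Among the named genes NCED3 (LOC_Os03g44380), an enzyme of abscisic acid synthesis, went from 4.47 to 60.7 CPM in wild type and from 4.56 to 30.2 CPM in idr1-1.

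Of 13 stress transcription factors, 7 were higher and 2 lower in wild type, where 22.4% of all loci were higher and 21.5% lower, and 7 were higher and 1 lower in idr1-1, where 18% were higher and 17.6% lower. HOX24, chosen for being higher in drought, is one of the 7 in each genotype. BZIP23 (LOC_Os02g52780), a basic leucine zipper factor of abscisic acid signalling, went from 29.7 to 147.8 CPM in wild type and from 24.6 to 121 CPM in idr1-1. Of 4 tested genes for compatible solutes and water-stress proteins, 2 were higher and 1 lower in wild type and 3 were higher and 1 lower in idr1-1. Of the 3 tested genes of a list for embryo and endosperm, 1 was higher in each genotype, against 22.4% and 18% of all loci. It was the oleosin gene OLE18 (LOC_Os03g49190), at 0.450 CPM in wild type drought. With control means of 0 in wild type and 0.0175 CPM in idr1-1, OLE18 passed edgeR's filter only through drought libraries. Its call as higher was therefore largely fixed by the filter. VP1 (LOC_Os01g68370), the seed regulator of abscisic acid responses, was at 0 in all libraries. None of the genes in these lists other than HOX24 was one of the 27 loci.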

How the data were processed

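Messenger RNA was sequenced in 12 libraries and grouped by the labels' genotype, stress and replicate. Reads were aligned with HISAT2 2.1.0 and counted with featureCounts 1.6.3, per the submitters' processing notes. Build, annotation and strand setting are not given here, so overlapping and antisense loci are uncertain. The deposited values are estimated counts per locus, 13.3% to 14.8% of nonzero values per library not being whole. They were rounded for testing, which changed a total by at most 0.0011%.

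CPM were computed from library totals, and all selection and level statements use unrounded values. In R 4.3.3, edgeR 4.0.16 (filterByExpr, TMM, quasi-likelihood test, 1 mean per group) was fitted over all 12 libraries and 22833 loci with Benjamini-Hochberg adjustment at 0.05. The contrasts were idr1-1 against wild type within drought, and drought against control in each genotype. All 27 loci passed the filter. A locus silent in control was tested only if its drought libraries were high enough to pass it. DESeq2 1.42.0 and the other alternatives are given in the closing section. Steps were tested on simulated data with 200 changed loci. Folds against a group at 0 use 3 counts over the group, and these floors cover counting error only.

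Named loci are the 10 with the highest mean drought CPM, loci called between genotypes, those nearest the limits, members of the lists, and neighbours of the 10 or called in both genotypes; other loci were named after their values were seen. Members and lists were chosen with earlier results of these data known. No LOC_Os identifier of the files was listed in the reference gene table, which follows assembly ASM3414082v1. Gene names are recalled assignments, used for 52 of 68 list loci where that table holds the name on the same chromosome, so the identifier is what was measured. Replicate numbers were not used to pair samples: deviations of same-numbered samples correlated at −0.357 to 0.242 over 18 pairs of samples, 4 of them above 0.1. With 3 libraries per group, these correlations cannot exclude a shared batch. No pair of libraries was a duplicate.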

Additional observations from a re-analysis of the deposited data

How the results depend on the processing

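The number of loci meeting the rule was 5 with no count allowed in control, 52 with a control limit of 1 CPM, 41 with a drought limit of 2 CPM, 17 with one of 5 CPM, 35 with TMM-scaled library sizes and 27 to 34 with any 1 library left out, against 27. Between genotypes within drought, the 27 loci gave 5 calls with DESeq2, 1 without a filter, 1 with the replicate block and 0 to 13 with 1 library left out, against 0, and 15 with DESeq2 without idr1-1 drought replicate 3, added after seeing the data. All loci gave 557 calls with DESeq2 (1883 without that replicate), 79 without a filter, 18 with totals alone, 3 with only the drought groups, 14 with the replicate block and 9 to 1074 with 1 library left out, against 42. The extremes were without idr1-1 drought replicate 1 (9), without replicate 2 (506) and without replicate 3 (1074). The median log2 fold change of the 27 loci was −1.05 to −0.50 with 1 library left out and −0.79 to −0.72 otherwise. Neighbours higher in wild type drought numbered 18 within 2 entries and 32 within 5, the latter distance being added after seeing the data. They numbered 13 with only the groups compared and 6 to 13 with 1 library left out, against 9. In idr1-1 they numbered 15 and 25, 3 with only the groups compared, and 4 to 9 with 1 library left out, against 5. The cause of these shifts was not tested. Of 486 values for single loci under an alternative, 453 kept direction and side of the threshold, 25 crossed to a call and 8 reversed. With 1 library left out, the log2 fold change ranged from −0.50 to 0.44 for LOC_Os04g01740, from −0.15 to 0.44 for LOC_Os04g53800, from −0.55 to 0.032 for LOC_Os06g51440 and from −0.40 to 0.36 for LOC_Os12g31860, and the replicate block turned the last to −0.019. Depth limits control values, which were at most 3 counts for most loci and libraries and 9.03 at the highest.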

Other observations

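Applying the rule to 1 genotype's drought libraries gave lists of unequal length. With 6 silent control libraries required in both cases, 77 loci reached 3 CPM in every wild type drought library and 29 did so in every idr1-1 drought library. Beyond the 27 shared loci this left 50 on the wild type side and 2 on the idr1-1 side, LOC_Os01g62600 and LOC_Os02g57770. All 50 had counts in every idr1-1 drought library. In idr1-1 drought, 3 of the 50 reached 3 CPM in replicate 1, 8 in replicate 2 and 44 in replicate 3. The 3 loci left out by name are not in these numbers. Such loci are higher in the genotype they were chosen in partly by construction, so these are counts and not a test.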
